A study of Mus musculus with 36 samples.

Results

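The tumour necrosis factor (TNF) ligand and receptor superfamilies were examined in 4 tissues of mice given lipopolysaccharide (LPS), with or without genipin. Members were the genes whose symbol begins with Tnfsf or Tnfrsf, together with Tnf, Lta, Ltb, Ltbr, Fas, Fasl, Cd27, Cd40, Cd40lg, Cd70, Eda2r, Edar and Ngfr, each read from its probe with the highest mean. The rule found 21 genes among the 12394 named genes of the array, of which 5 encode ligands and 16 encode receptors. Of these, 11 had values in brain among 10148 genes, 16 in heart among 9536, 14 in kidney among 9485 and 12 in liver among 8479. Genes named by the rule without a matched probe were not analysed here.

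All mice were female FVB animals, 6 to 8 weeks old, carrying a luciferase transgene whose promoter the labels do not give. The groups were mice given LPS, a bacterial outer membrane component, into the peritoneal cavity at 4 mg/kg and genipin, an iridoid compound from gardenia fruit, 10 min later, mice given LPS alone, and untreated mock mice. Tissues of the LPS-treated groups were taken 4 h later, and no such time is given for mock mice. Each of the 12 combinations of tissue and treatment had 3 one-colour arrays, 36 in all. The study used genipin at 1, 10 and 100 mg/kg, but the dose behind the arrays is not given in the labels. The labels also leave unsaid if each array is its own mouse. Thus p-values reflect array-to-array spread, which may be technical.

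TNF family ligands are mostly trimeric membrane proteins, many of them shed by proteases, and each engages receptors with cysteine-rich extracellular repeats. Receptors with a death domain recruit adaptors that can lead to NF-kB activation or to caspase-driven death, receptors with TRAF-binding motifs recruit TRAF proteins and signal through NF-kB and MAP kinases, and decoy receptors bind ligand without a full signalling tail. After LPS, macrophages are a well-known early source of TNF, and TNF in turn acts on endothelium, hepatocytes and kidney tubule cells.

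Values are the authors' normalized intensities, with a floor at their 5th percentile, 263, below which values were raised to it for testing. Differences are between group means of log2 intensity, with 3 arrays per group. The ± is limma's SE, from the spread within groups over the 9 arrays of the tissue. For differences between 2 tissues it comes from the arrays of both. A group with all arrays at the floor has a spread of 0, which can lower the SE and the adjusted p. A gene is called changed at an adjusted p under 0.05 (limma, Benjamini-Hochberg over all genes of the tissue). Levels are not compared between genes or between tissues. Median intensities of the 9 arrays of a tissue were nearly equal, and arrays of a group correlated at 0.984 to 0.998. The defining markers of each tissue were present: 3 of 4 neuronal markers had values in brain, 5 of 5 cardiomyocyte markers in heart, 4 of 4 proximal tubule markers in kidney and 4 of 5 hepatocyte markers in liver. Some groups stood apart in markers of other tissues. Summed intensities of 2 of 4 adipocyte markers were 1672 to 1774 in LPS+genipin hearts, 71391 to 79639.7 in LPS hearts and 1686.5 to 1812.5 in mock hearts. Those of 2 of 4 atrial muscle markers were 3238 to 3322 in LPS+genipin hearts, 126373 to 130967 in LPS hearts and 3983 to 4358 in mock hearts. In brain, the 4 skeletal muscle markers summed to 3749 to 4086 in LPS+genipin brains, 3416 to 3680.1 in LPS brains and 112506 to 118985 in mock brains. Among 3 of 5 hepatocyte markers with values in brain (Alb, Apoa1 and Ttr, which the choroid plexus also makes), sums were 67199.7 to 67576 in LPS+genipin brains, 3908 to 4946 in LPS brains and 65425 to 66012 in mock brains. Ttr fell and Alb and Apoa1 rose in LPS brains against mock brains. In heart 3 hepatocyte markers summed to 3290.5 to 3665 in LPS+genipin hearts, 16315 to 26539.6 in LPS hearts and 2143 to 2509.7 in mock hearts. Of these markers, 1 was higher and 2 were lower in LPS hearts than in mock hearts, with Alb at the floor in every LPS heart. With genipin, 2 were higher and 1 was lower than with LPS alone. In kidney 2 of 4 skeletal muscle markers summed to 3691 to 3881 in LPS+genipin kidneys, 943 to 1049 in LPS kidneys and 772 to 906 in mock kidneys. There 3 of 4 adipocyte markers summed to 50536 to 58651 with LPS+genipin, 31946 to 36921 with LPS and 25487.5 to 26941 in mock. In the same order, 4 of 5 hepatocyte markers in kidney summed to 58712 to 64843.5, 49039 to 54078 and 20724 to 28067. These shifts covered every array of a group, so no array could be left out to remove them, and in these comparisons they and the treatment cannot be told apart.

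Most members changed after LPS in brain, kidney and liver, with more higher than lower in each. In kidney, 10 of the 14 members were lower with genipin than with LPS alone. In LPS against mock, 8 of 11 members were called in brain, where 33.9% of all tested genes were called. Of these, 5 were higher (all genes 16.4%) and 3 lower (all genes 17.6%). In heart 8 of 16 were called (all genes 47.4%), 5 of them higher (18.3%) and 3 lower (29.1%). In kidney 12 of 14 were called (all genes 64.5%), 11 higher (25.3%) and 1 lower (39.2%). In liver 10 of 12 were called (all genes 66.5%), 7 higher (29.3%) and 3 lower (37.2%). The median log2 difference of the members was 0.70 in kidney, 0.50 in liver, 0.27 in brain and 0.22 in heart. Over all genes the medians were −0.09, −0.03, −0.003 and −0.06 in the same order of tissues.

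In LPS+genipin against LPS, most calls were toward lower values. In brain 6 of 11 members were called (all genes 30.2%), 2 higher (16.4%) and 4 lower (13.8%). In heart 8 of 16 were called (all genes 42.1%), 2 higher (22.1%) and 6 lower (19.9%). In kidney 11 of 14 were called (all genes 54.9%), 1 higher (32.3%) and 10 lower (22.6%). In liver 8 of 12 were called (all genes 54%), 2 higher (29.6%) and 6 lower (24.4%). The members' medians were −0.57 in kidney, −0.34 in liver, −0.19 in brain and −0.21 in heart, beside 0.04, 0.03, 0.01 and 0.03 over all genes. In LPS+genipin against mock, 2 of 11 members were called in brain (all genes 14.5%), 1 higher (8.92%) and 1 lower (5.59%). In heart 6 of 16 were called (all genes 20%), 3 higher (7.61%) and 3 lower (12.3%). In kidney 7 of 14 were called (all genes 44.6%), 7 higher (20.2%) and 0 lower (24.4%). In liver 10 of 12 were called (all genes 60.9%), 4 higher (28.5%) and 6 lower (32.4%). The LPS arrays enter both of the first comparisons, and the values of these comparisons are given side by side without a test of their relation. The labels do not give the rule that left probes out of a tissue, so these counts describe only members with a value there.

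**Figure D1:**
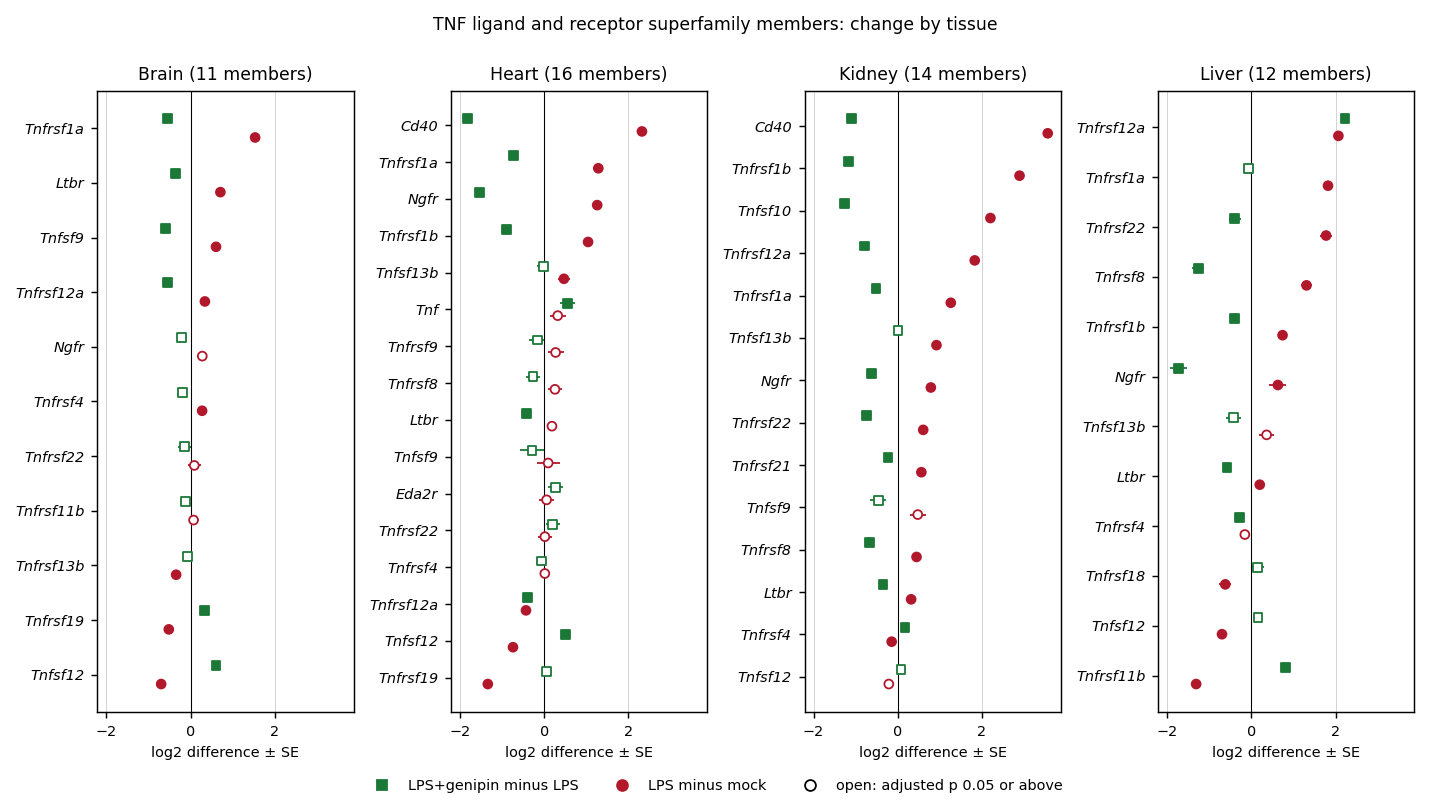
Log2 differences ± SE of each member in brain, heart, kidney and liver, with LPS+genipin minus LPS as green squares and LPS minus mock as red circles, from 3 arrays per group; open symbols have an adjusted p of 0.05 or above. Cd40 had the largest LPS difference in heart and kidney, and Tnfrsf12a in liver lay above 2 in both comparisons.

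Among ligands, Tnfsf10 was far higher after LPS in kidney and lower with genipin than with LPS alone, Tnfsf12 was lower after LPS in 3 tissues, and Tnf, measured in heart only, was highest in LPS+genipin hearts. In bulk tissue, fewer cells of a type and less RNA per cell cannot be told apart, here and in every result below. Tnf, the founding ligand of the family, had intensities of 616, 634 and 448.6 in LPS+genipin hearts, 342, 335 and 479.5 in LPS hearts and 315, 341 and 239.7 in mock hearts. The LPS+genipin arrays overlapped the LPS arrays and lay above all mock arrays, and 1 mock array was at the floor. The LPS minus mock difference was 0.32 ± 0.19 (adjusted p = 0.189). LPS+genipin minus LPS was 0.56 ± 0.19 (adjusted p = 0.0425) and LPS+genipin minus mock was 0.88 ± 0.19 (adjusted p = 0.0137). The difference from LPS lost its call when only the compared arrays were fitted (adjusted p = 0.0719) and when no floor was set (adjusted p = 0.0515). It also lost it without LPS+genipin array 1 or 2 or LPS array 1 or 2 (adjusted p up to 0.132). The difference from mock lost its call without LPS+genipin array 1 (adjusted p = 0.053) or array 2 (adjusted p = 0.0527).

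Tnfsf10 encodes TRAIL, a ligand of death receptors, and had values in kidney only, of 1639, 1694 and 1453 in LPS+genipin kidneys, 3825, 3954 and 3728 in LPS kidneys and 827.5, 866 and 807 in mock kidneys. The groups did not overlap, with LPS kidneys highest and LPS+genipin kidneys between. For LPS minus mock the difference was 2.20 ± 0.06 (adjusted p = 4.05e-08), a 4.6-fold difference, and LPS+genipin minus LPS was −1.27 ± 0.06 (adjusted p = 2.92e-06). Tnfsf12 encodes TWEAK, the ligand of the receptor Fn14. Its intensities were 1032, 891 and 837 in LPS+genipin brains, 637, 653 and 527 in LPS brains and 932, 993 and 1011 in mock brains. They were 1188, 1156 and 1266.5 in LPS+genipin hearts, 838, 916.5 and 775 in LPS hearts and 1641, 1362 and 1244 in mock hearts. In brain and heart every LPS array lay below every mock array and every LPS+genipin array. Of 4 microglia markers, the 3 with values in brain (Cx3cr1, P2ry12 and Tmem119) were all lower after LPS and all higher with genipin than with LPS alone, with sums of 6125 to 6243 in LPS+genipin brains, 2923 to 3179 in LPS brains and 8928.5 to 9389 in mock brains. The 5 of 7 monocyte and macrophage markers with values in brain summed to 14972 to 16102.5 in LPS+genipin brains, 9896 to 12018 in LPS brains and 14637 to 15980.2 in mock brains. The part of these cells in the Tnfsf12 differences was not tested. The LPS difference was −0.70 ± 0.10 (adjusted p = 0.00178) in brain and −0.74 ± 0.11 (adjusted p = 0.000813) in heart. LPS+genipin minus LPS was 0.60 ± 0.10 (adjusted p = 0.00409) and 0.52 ± 0.11 (adjusted p = 0.00635). In liver Tnfsf12 had 512, 545 and 614 in LPS+genipin livers, 499, 515 and 481 in LPS livers and 738.5, 818 and 875 in mock livers, so both LPS-treated groups lay below mock. There the LPS minus mock difference was −0.70 ± 0.09 (adjusted p = 0.000173), while LPS+genipin minus LPS was 0.16 ± 0.09 (adjusted p = 0.158). In kidney its values were 1218, 1260.0 and 1343 in LPS+genipin kidneys, 1351, 1283 and 1017 in LPS kidneys and 1383, 1454 and 1365 in mock kidneys, and no difference passed, with LPS minus mock at −0.21 ± 0.10 (adjusted p = 0.0977). Without LPS array 1 that difference was −0.29 (adjusted p = 0.0361). The LPS difference was lower in brain than in kidney by the test of the difference itself, −0.49 ± 0.15 (adjusted p = 0.0121).

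Tnfsf9 encodes 4-1BB ligand, a costimulator of T cells. In brain it had 221, 202.5 and 155 in LPS+genipin brains, 349, 424.5 and 430.5 in LPS brains and 257, 254 and 243 in mock brains, where all LPS+genipin and all mock arrays were at the floor. LPS brains were at least 1.52-fold higher than mock brains (adjusted p = 0.00088). LPS+genipin brains were at least 1.52-fold lower than LPS brains (adjusted p = 0.00112). With the floor at the 10th percentile the second difference was −0.24 (adjusted p = 0.0537). In kidney Tnfsf9 had 269, 212 and 210.3 in LPS+genipin kidneys, 352.5, 509 and 271 in LPS kidneys and 245, 255 and 261 in mock kidneys. In heart it had 651, 467 and 396 in LPS+genipin hearts, 389.6, 712 and 791 in LPS hearts and 569.7, 522 and 606 in mock hearts. No difference passed in either tissue. In kidney both the LPS and the genipin difference of Tnfsf9 passed with no floor (adjusted p = 0.0423 and 0.0179), with a trended prior (0.0324 and 0.0418) and without LPS array 3 (0.0046 and 0.00661). Tnfsf13b encodes BAFF, a survival factor of B cells. In kidney it averaged 569 ± 15 in LPS+genipin kidneys, 568 ± 37.3 in LPS kidneys and 297 ± 41.4 in mock kidneys (SD, n = 3 each). The kidney differences were 0.92 ± 0.09 (adjusted p = 4.64e-05) for LPS minus mock and 0.00 ± 0.09 (adjusted p = 0.979) for LPS+genipin minus LPS. In heart its LPS minus mock difference was 0.47 ± 0.15 (adjusted p = 0.0294), a call lost without LPS array 1 or 3 or mock array 3 (adjusted p up to 0.0875). In liver it was 0.36 ± 0.17 (adjusted p = 0.0972), which passed without LPS array 1 (adjusted p = 0.0272).

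Upstream sequences were matched for 16 of the 21 members in RefSeq (build GRCm38.p6). Shown are the 250 bases before the transcription start of the genes on which the results turn: the 2 TNF receptors, Tnfrsf8, which lies next to Tnfrsf1b on chromosome 4, the TWEAK receptor gene Tnfrsf12a, and Tnfsf10, all printed 5′ to 3′ on the gene's own strand. Capitals mark matches to 3 motifs searched on both strands: the kappaB consensus, the core of the interferon-stimulated response element (ISRE) and TGANTCA (AP-1). Windows with a match were 5.8%, 3.44% and 7.81% of all 32851 RefSeq windows, each running from 250 bases before to 50 after a start.
Tnfrsf1a (chr6:125349473-125349722, plus strand): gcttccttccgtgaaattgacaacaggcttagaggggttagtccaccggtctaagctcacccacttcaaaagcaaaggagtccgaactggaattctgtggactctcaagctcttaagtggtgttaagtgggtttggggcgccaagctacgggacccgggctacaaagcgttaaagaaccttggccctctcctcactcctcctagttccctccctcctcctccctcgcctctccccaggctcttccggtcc
Tnfrsf1b (chr4:145246871-145247120, minus strand): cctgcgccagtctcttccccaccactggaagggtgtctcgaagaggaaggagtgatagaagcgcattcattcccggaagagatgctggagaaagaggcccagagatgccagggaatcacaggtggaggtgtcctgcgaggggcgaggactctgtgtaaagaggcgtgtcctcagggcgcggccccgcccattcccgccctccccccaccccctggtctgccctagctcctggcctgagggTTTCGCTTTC
Tnfrsf8 (chr4:145315165-145315414, minus strand): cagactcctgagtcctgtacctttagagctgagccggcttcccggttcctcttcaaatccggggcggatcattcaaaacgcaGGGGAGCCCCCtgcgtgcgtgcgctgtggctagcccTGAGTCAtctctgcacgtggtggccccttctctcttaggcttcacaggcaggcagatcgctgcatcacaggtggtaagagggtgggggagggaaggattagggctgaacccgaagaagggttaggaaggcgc
Tnfrsf12a (chr17:23677450-23677699, minus strand): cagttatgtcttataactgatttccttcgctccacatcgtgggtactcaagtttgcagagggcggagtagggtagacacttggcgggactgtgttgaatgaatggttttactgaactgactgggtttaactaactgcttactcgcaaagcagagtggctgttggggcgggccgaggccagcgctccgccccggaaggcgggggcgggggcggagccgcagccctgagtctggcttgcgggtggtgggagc
Tnfsf10 (chr3:27316827-27317076, plus strand): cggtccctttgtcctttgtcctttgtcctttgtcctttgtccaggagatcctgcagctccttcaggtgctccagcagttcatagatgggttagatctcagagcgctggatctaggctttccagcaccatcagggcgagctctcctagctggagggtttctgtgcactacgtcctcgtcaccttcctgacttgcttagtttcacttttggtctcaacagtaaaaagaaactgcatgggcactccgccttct
In Tnfrsf1b an ISRE core match occupies bases −10 to −1 before the start. In Tnfrsf8, overlapping kappaB matches on both strands occupy −168 to −158 and a TGANTCA match occupies −132 to −126. In the other 3 windows shown these letters did not occur. Among the remaining members with a window, Tnfrsf9 held a kappaB and a TGANTCA match, and Tnfsf13b held an ISRE core and a TGANTCA match. A match is a description of the sequence and not of binding.

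Tnfrsf1a, which encodes TNFR1, the broadly expressed death-domain receptor of TNF, was higher after LPS in all 4 tissues, and with genipin it was lower than with LPS alone in brain, heart and kidney. Its intensities were 1742, 1747.5 and 1873.5 in LPS+genipin brains, 2432, 2663 and 2807 in LPS brains and 903, 952 and 870.2 in mock brains. In heart they were 4459, 4376 and 4141 in LPS+genipin hearts, 7091, 7417 and 7071 in LPS hearts and 2972, 2900.0 and 2974 in mock hearts. In kidney they were 7809, 7700.0 and 6969 in LPS+genipin kidneys, 10119, 11262 and 10750.4 in LPS kidneys and 4435, 4709.7 and 4263 in mock kidneys. In these 3 tissues the groups did not overlap, and LPS+genipin arrays lay between LPS and mock arrays. In liver Tnfrsf1a had 8994, 9099 and 9013 in LPS+genipin livers, 9454, 9740.1 and 9219 in LPS livers and 2637.4, 2722 and 2677.5 in mock livers, so both LPS-treated groups lay far above mock. The LPS minus mock difference of Tnfrsf1a was 1.53 ± 0.07 (adjusted p = 2.34e-06) in brain and 1.29 ± 0.05 (adjusted p = 4.01e-07) in heart. It was 1.26 ± 0.06 (adjusted p = 1.24e-06) in kidney and 1.82 ± 0.04 (adjusted p = 1.06e-08) in liver. The brain difference ranked 74 from the highest among 10148 genes. LPS+genipin minus LPS was −0.56 ± 0.07 (adjusted p = 0.00076) in brain and −0.73 ± 0.05 (adjusted p = 1.98e-05) in heart. That difference was −0.52 ± 0.06 (adjusted p = 0.000311) in kidney and −0.07 ± 0.04 (adjusted p = 0.188) in liver. The genipin difference in heart minus that in liver was −0.67 ± 0.07 (adjusted p = 2.82e-06), and in kidney minus liver it was −0.45 ± 0.08 (adjusted p = 0.000454).

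Tnfrsf1b encodes TNFR2, a TRAF-binding TNF receptor found mainly on leukocytes and endothelium. In kidney it had 796, 872 and 949 in LPS+genipin kidneys, 1955, 1946 and 1959 in LPS kidneys and 224, 228 and 246 in mock kidneys, with all mock arrays at the floor. LPS kidneys were at least 7.44-fold higher than mock kidneys (adjusted p = 6.24e-09). There LPS+genipin minus LPS was −1.17 ± 0.06 (adjusted p = 3.5e-06). Its heart values were 454, 521 and 534 in LPS+genipin hearts, 875, 1015.5 and 908 in LPS hearts and 514, 398 and 451 in mock hearts, so LPS hearts stood above both other groups, which overlapped. Its liver values were 1599.8, 1541.5 and 1625 in LPS+genipin livers, 2247.5, 2095 and 1931 in LPS livers and 1133, 1262 and 1362 in mock livers, with no overlap among the groups. For LPS minus mock the difference was 1.04 ± 0.11 (adjusted p = 0.000133) in heart and 0.74 ± 0.08 (adjusted p = 9.15e-05) in liver. For LPS+genipin minus LPS it was −0.89 ± 0.11 (adjusted p = 0.000434) and −0.39 ± 0.08 (adjusted p = 0.00451). The LPS difference was larger in kidney than in liver, 2.15 ± 0.11 (adjusted p = 1.53e-10), with the kidney value held at its bound.

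Neutrophil markers were higher after LPS in heart, kidney and liver, and with genipin they were lower than with LPS alone in heart and liver. Of 6 neutrophil markers, the 3 with values in heart (S100a8, S100a9 and Ltf) summed to 16747 to 18012 in LPS+genipin hearts, 39892 to 45109 in LPS hearts and 2284 to 2487.5 in mock hearts. The 1 with a value in kidney, S100a9, had 4481 to 4504 in LPS+genipin kidneys, 4372 to 6317 in LPS kidneys and 263 to 363 in mock kidneys. In kidney S100a9 did not pass between LPS+genipin and LPS. The 2 with values in liver, S100a8 and S100a9, summed to 57212 to 62162 in LPS+genipin livers, 80909 to 86197 in LPS livers and 3598.5 to 3856 in mock livers. Both were lower with genipin than with LPS alone. In brain the 4 with values summed to 4256 to 4321 in LPS+genipin brains, 3645 to 4164 in LPS brains and 1954 to 2008 in mock brains. Of these 4, 1 was higher with genipin than with LPS alone and 3 did not pass. Of 7 monocyte and macrophage markers, 5 had values in heart, where their sums were 15319 to 16656 in LPS+genipin hearts, 11139.9 to 12035 in LPS hearts and 16345 to 17674 in mock hearts. The 5 with values in kidney summed to 14255 to 15317 in LPS+genipin kidneys, 12904.5 to 13149 in LPS kidneys and 11381 to 12056 in mock kidneys. In liver the 6 with values summed to 50317 to 52648 in LPS+genipin livers, 51072 to 53432 in LPS livers and 23789 to 25213.5 in mock livers. These sums hide mixed directions. After LPS, 2 of the liver markers were higher, 3 lower and 1 did not pass, with a median log2 difference of −0.24. In heart 0 were higher and 2 lower, and in kidney 4 were higher and 1 lower. Of 6 endothelial markers, the 5 with values in heart summed to 27860.3 to 29968 in LPS+genipin hearts, 23173.5 to 24547 in LPS hearts and 33802 to 37574 in mock hearts. In kidney their sums were 17022 to 18205 in LPS+genipin kidneys, 15443 to 16159.6 in LPS kidneys and 20661 to 21321 in mock kidneys. In liver they were 5168 to 5666 in LPS+genipin livers, 5751 to 5801 in LPS livers and 7507 to 8195 in mock livers. In these 3 tissues LPS arrays had lower sums than mock arrays, and in liver LPS+genipin arrays had lower sums than LPS arrays. In brain they were 3515 to 3751 in LPS+genipin brains, 3193 to 3492 in LPS brains and 4299 to 4485.5 in mock brains. Single endothelial markers did not all follow their sums. After LPS, 2 were higher and 2 lower in liver, with a median log2 difference of 0.13, and 1 higher and 3 lower in kidney. In heart 0 were higher and 3 lower, and in brain 1 was higher and 4 lower. With genipin against LPS alone in liver, 2 were higher and 3 lower. The part of these cell types in the receptor differences was not tested.

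Cd40 encodes the CD40 receptor of B cells, dendritic cells, macrophages and activated endothelium, and had the largest LPS difference among members in heart and in kidney. Its heart intensities were 556.5, 595 and 592 in LPS+genipin hearts, 2016.4, 2324.5 and 1875 in LPS hearts and 443, 379 and 418 in mock hearts. Its kidney intensities were 1487, 1437 and 1414 in LPS+genipin kidneys, 3070.4, 3187 and 3067 in LPS kidneys and 228.5, 235 and 228 in mock kidneys. No groups overlapped, and all mock kidneys were at the floor. In heart LPS minus mock was 2.32 ± 0.09 (adjusted p = 3.86e-07) and LPS+genipin minus LPS was −1.83 ± 0.09 (adjusted p = 3.49e-06). In kidney LPS arrays were at least 11.8-fold higher than mock arrays (adjusted p = 1.8e-10). There LPS+genipin minus LPS was −1.10 ± 0.03 (adjusted p = 3.56e-07). LPS+genipin kidneys were at least 5.5-fold above mock kidneys (adjusted p = 2.17e-09), and LPS+genipin minus mock in heart was 0.50 ± 0.09 (adjusted p = 0.00805). The genipin difference was larger in size in heart than in kidney, −0.72 ± 0.10 (adjusted p = 4.96e-05). Among B cell markers, 2 of 4 had values in heart, summing to 822 to 1033 in LPS+genipin hearts, 936.5 to 1449.8 in LPS hearts and 721 to 922 in mock hearts. Of these markers Cd79a alone had a value in kidney, at 263 (the floor) in LPS+genipin kidneys, 389 to 654 in LPS kidneys and 263 to 279.6 in mock kidneys. Their part in the Cd40 differences was not tested.

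Ltbr encodes the lymphotoxin beta receptor, which signals through TRAF proteins to the alternative NF-kB pathway, and it was lower in LPS+genipin arrays than in LPS arrays in all 4 tissues. Its intensities were 339.6, 399 and 389 in LPS+genipin brains, 443, 534.5 and 466 in LPS brains and 294, 324 and 265 in mock brains. Heart arrays gave 1024, 1141 and 1020.2 in LPS+genipin hearts, 1391, 1492 and 1374 in LPS hearts and 1184, 1274 and 1287 in mock hearts. Kidney arrays gave 2350.4, 2436 and 2166.5 in LPS+genipin kidneys, 2822.5, 3122 and 2922 in LPS kidneys and 2498, 2267.5 and 2348 in mock kidneys. LPS+genipin arrays were lower than LPS arrays in these 3 tissues. In liver the values were 2351.5, 2147.4 and 2184 in LPS+genipin livers, 3488, 3172 and 3311 in LPS livers and 2858, 2879 and 2939.8 in mock livers. Every LPS+genipin array lay below every LPS array in each tissue. The difference from LPS was −0.35 ± 0.10 (adjusted p = 0.0349) in brain and −0.42 ± 0.07 (adjusted p = 0.0017) in heart. It was −0.35 ± 0.06 (adjusted p = 0.00195) in kidney and −0.58 ± 0.05 (adjusted p = 7.89e-05) in liver. The test for a difference among the tissues gave an adjusted p of 0.193. The brain call was lost when only the compared arrays were fitted (adjusted p = 0.0623) and without LPS+genipin array 1, 2 or 3 or LPS array 2 or 3 (adjusted p up to 0.108). The Ltbr difference for LPS minus mock was 0.71 ± 0.10 (adjusted p = 0.00165) in brain and 0.18 ± 0.07 (adjusted p = 0.054) in heart. In the other tissues it was 0.32 ± 0.06 (adjusted p = 0.00246) in kidney and 0.20 ± 0.05 (adjusted p = 0.012) in liver. In liver LPS+genipin minus mock was −0.38 ± 0.05 (adjusted p = 0.000489), below the untreated level. On chromosome 6, 1 protein-coding gene separates Ltbr from Tnfrsf1a in RefSeq.

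**Figure D2:**
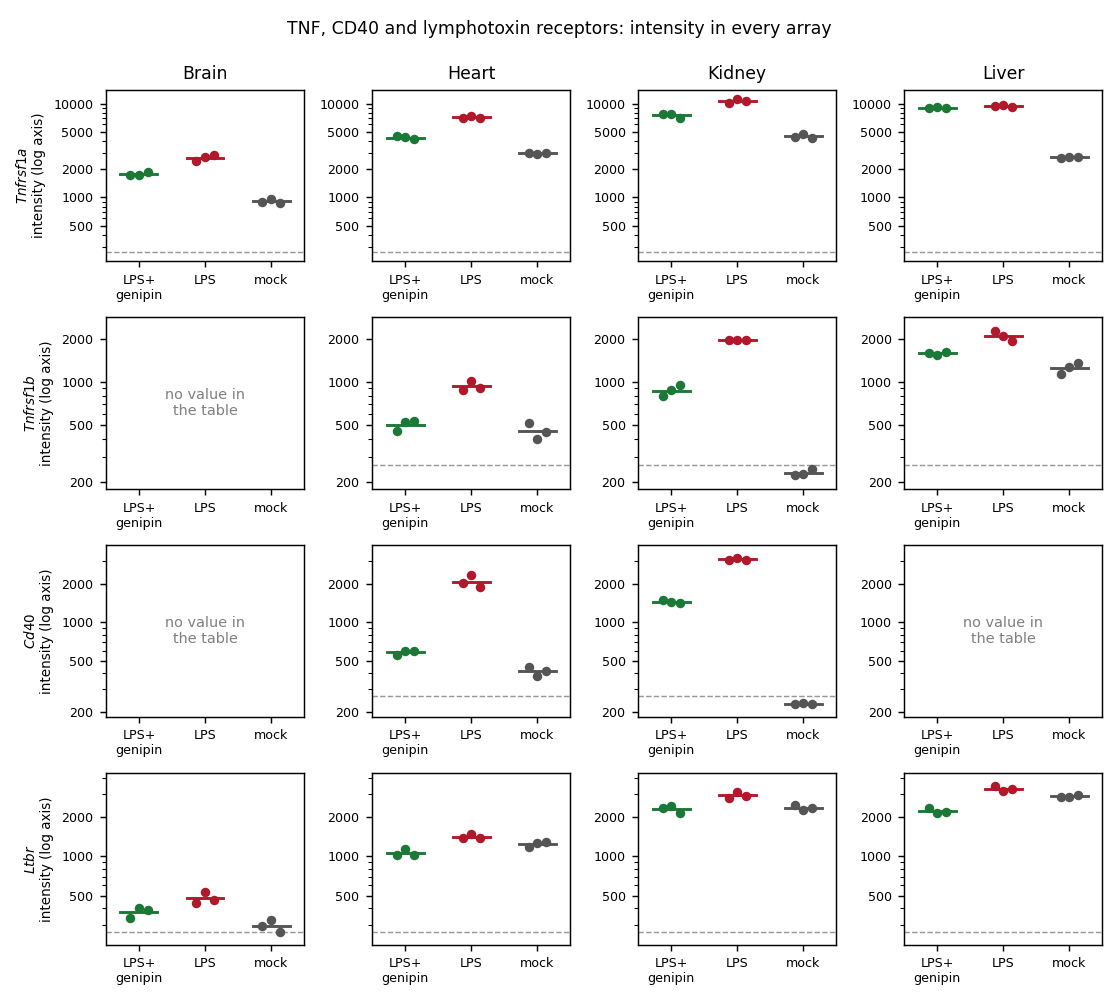
Intensity (log axis) of Tnfrsf1a, Tnfrsf1b, Cd40 and Ltbr in every array of LPS+genipin, LPS and mock mice, by tissue; each point is an array, each bar the geometric mean of 3 arrays, and the dashed line the floor at 263. LPS arrays stand above mock arrays for Tnfrsf1a in all 4 tissues, and mock kidneys lie below the floor for Tnfrsf1b and Cd40.

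Tnfrsf12a encodes Fn14, the TWEAK receptor, a small TRAF-binding receptor known to be induced by tissue injury and growth factors. In liver it was higher after LPS and higher still with genipin, whereas in kidney, brain and heart it was lower with genipin than with LPS alone. Its liver intensities were 8526, 8897 and 7578 in LPS+genipin livers, 1924, 1794 and 1626.5 in LPS livers and 447.5, 426 and 399 in mock livers. Its kidney intensities were 4413.6, 3921 and 4151 in LPS+genipin kidneys, 7391.5, 7429 and 6897 in LPS kidneys and 1998, 2049 and 2061 in mock kidneys. In both tissues the groups did not overlap, with LPS+genipin highest in liver and LPS highest in kidney. In liver LPS minus mock was 2.07 ± 0.09 (adjusted p = 3.34e-07). There LPS+genipin minus LPS was 2.23 ± 0.09 (adjusted p = 9.03e-07), which ranked 22 from the highest among 8479 genes. LPS+genipin livers were 19.6-fold above mock livers, a difference of 4.29 ± 0.09 (adjusted p = 1.63e-08) that ranked 4 from the highest. In kidney LPS minus mock was 1.83 ± 0.05 (adjusted p = 4.26e-08) and LPS+genipin minus LPS was −0.80 ± 0.05 (adjusted p = 1.15e-05). The genipin difference in kidney minus that in liver was −3.03 ± 0.11 (adjusted p = 1.04e-11). In heart minus liver it was −2.62 ± 0.12 (adjusted p = 1.56e-10), and in brain minus liver −2.77 ± 0.15 (adjusted p = 5.01e-10).

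In heart Tnfrsf12a had 2550.3, 2764.5 and 2994 in LPS+genipin hearts, 3600.0, 3728 and 3532 in LPS hearts and 5128, 4903 and 4629 in mock hearts, so LPS hearts lay below mock hearts and LPS+genipin hearts lower still. The heart differences were −0.43 ± 0.07 (adjusted p = 0.00157) for LPS minus mock and −0.39 ± 0.07 (adjusted p = 0.00337) for LPS+genipin minus LPS. In brain it had 826.4, 978 and 852 in LPS+genipin brains, 1323, 1327.4 and 1217 in LPS brains and 859, 1098 and 1116 in mock brains, with every LPS array above every other array. The brain difference after LPS was 0.34 ± 0.11 (adjusted p = 0.0477). That call was lost with the floor at the 10th percentile (adjusted p = 0.0601) and in a fit of the compared arrays alone (adjusted p = 0.077). It was also lost without any 1 of the 6 compared arrays (adjusted p up to 0.106). LPS+genipin minus LPS in brain was −0.55 ± 0.11 (adjusted p = 0.00856). In liver the ligand gene Tnfsf12, described above, was lower than mock in both LPS-treated groups, with LPS+genipin minus mock at −0.54 ± 0.09 (adjusted p = 0.000806). The 4 hepatocyte markers with values in liver summed to 261187 to 261944 in LPS+genipin livers, 260755 to 261937 in LPS livers and 260423 to 261944 in mock livers, near the upper limit of the intensity scale.

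Ngfr encodes the p75 neurotrophin receptor, a death-domain receptor known from neurons, Schwann cells and stromal cells. In heart it had 581.5, 671 and 625 in LPS+genipin hearts, 1798.5, 1709.8 and 1965.5 in LPS hearts and 823.5, 794 and 672 in mock hearts. In liver it had 1221, 1261 and 1228 in LPS+genipin livers, 3769, 3150.5 and 5909 in LPS livers and 2901, 2613 and 2496 in mock livers. LPS arrays lay above both other groups in each, and in liver LPS+genipin arrays lay below mock arrays too. LPS+genipin minus LPS was −1.54 ± 0.10 (adjusted p = 1.09e-05) in heart and −1.74 ± 0.20 (adjusted p = 0.000252) in liver, where it ranked 79 from the lowest among 8479 genes. LPS+genipin minus mock in liver was −1.11 ± 0.20 (adjusted p = 0.00179). In heart it was −0.28 (adjusted p = 0.0765), and it passed without mock array 3 (−0.37, adjusted p = 0.0319). After LPS the difference was 1.26 ± 0.10 (adjusted p = 2.02e-05) in heart and 0.63 ± 0.20 (adjusted p = 0.0246) in liver. The liver call was lost without mock array 2 (adjusted p = 0.064) or 3 (adjusted p = 0.071) and in a fit of the compared arrays alone (adjusted p = 0.0657). In kidney Ngfr had 754.5, 781 and 853 in LPS+genipin kidneys, 1199, 1138 and 1368 in LPS kidneys and 661, 827 and 666 in mock kidneys, with LPS arrays again highest. The kidney differences were 0.79 ± 0.11 (adjusted p = 0.00033) for LPS minus mock and −0.63 ± 0.11 (adjusted p = 0.00152) for LPS+genipin minus LPS. In brain its values were 664, 702 and 711 in LPS+genipin brains, 709, 944 and 763 in LPS brains and 632, 620.3 and 729 in mock brains, and no difference passed. Without LPS array 1 the brain difference after LPS was 0.37 (adjusted p = 0.0386). The genipin difference was more negative in heart than in brain, with brain minus heart at 1.34 ± 0.15 (adjusted p = 3.34e-06). The heart values of Ngfr move with the adipocyte and atrial markers given above, which were also high in LPS hearts alone. Heart values of other members, such as Cd40 and Tnfrsf1b, were likewise highest in LPS hearts. The part of these tissue markers in the heart differences was not tested.

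**Figure D3:**
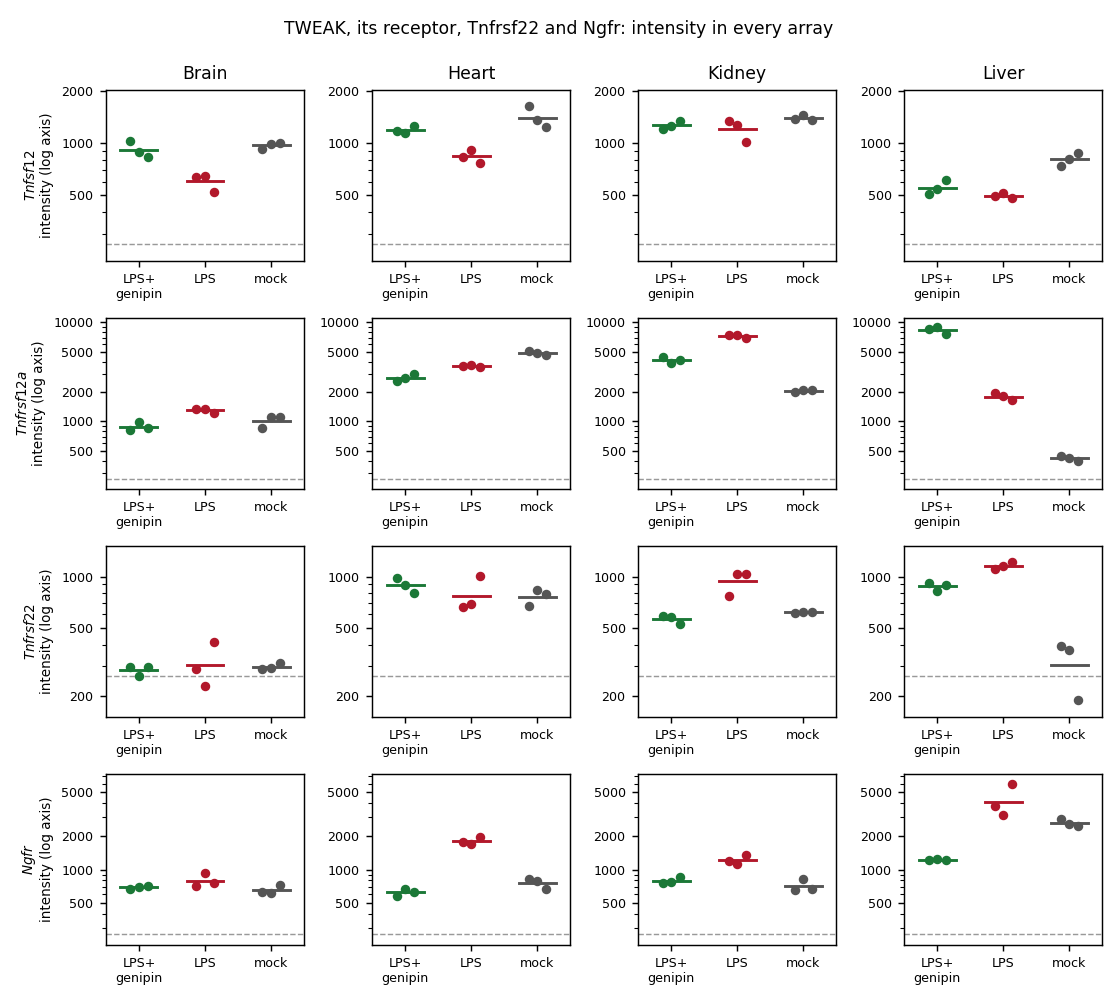
Intensity (log axis) of Tnfsf12, Tnfrsf12a, Tnfrsf22 and Ngfr in every array of LPS+genipin, LPS and mock mice, by tissue; each point is an array, each bar the geometric mean of 3 arrays, and the dashed line the floor at 263. Tnfrsf12a is highest in LPS+genipin livers but in LPS kidneys, and within heart and within liver Ngfr is lowest in the LPS+genipin arrays. In heart the Ngfr difference between LPS+genipin and mock did not pass.

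Tnfrsf8 encodes CD30, a TRAF-binding receptor of activated lymphocytes, and is the neighbour of Tnfrsf1b, with 0 protein-coding genes between them in RefSeq. Its upstream window holds the kappaB and AP-1 matches shown above. In liver it had 403.5, 447 and 353 in LPS+genipin livers, 824, 977 and 1099.5 in LPS livers and 341, 384 and 443 in mock livers, with LPS livers above both other groups. The Tnfrsf8 difference in liver was 1.31 ± 0.14 (adjusted p = 8.2e-05) for LPS minus mock and −1.27 ± 0.14 (adjusted p = 0.0002) for LPS+genipin minus LPS. In kidney it had 227, 233 and 190.2 in LPS+genipin kidneys, 387, 421 and 444 in LPS kidneys and 244, 319 and 342 in mock kidneys, with all LPS+genipin arrays at the floor. They were at least 1.59-fold lower than LPS arrays (adjusted p = 0.00068). The kidney difference for LPS minus mock was 0.45 ± 0.10 (adjusted p = 0.00395). In heart its values were 765, 702 and 787 in LPS+genipin hearts, 884, 758.5 and 1098 in LPS hearts and 811, 619 and 859.7 in mock hearts, the groups overlapped, and no difference passed. The LPS difference was smaller in kidney than in liver, −0.86 ± 0.17 (adjusted p = 0.00059). No T cell marker of 6 had a value in kidney or liver, and 1 of 4 NK cell markers had a value in liver.

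Of the decoy receptors, Tnfrsf11b was lower after LPS in liver, while Tnfrsf22 was higher after LPS in kidney and liver. Tnfrsf11b encodes osteoprotegerin, a soluble decoy for RANK ligand and TRAIL. In liver it had 612, 661 and 586 in LPS+genipin livers, 335, 384 and 342 in LPS livers and 858, 852 and 924 in mock livers, so LPS livers were lowest and the groups did not overlap. In liver LPS minus mock was −1.31 ± 0.07 (adjusted p = 1.61e-06) and LPS+genipin minus LPS was 0.81 ± 0.07 (adjusted p = 5.95e-05). In brain its values were 418, 421 and 336.5 in LPS+genipin brains, 371, 481 and 432.4 in LPS brains and 404, 429 and 384 in mock brains, and no difference passed. The LPS difference in brain minus that in liver was 1.38 ± 0.14 (adjusted p = 4.94e-07). Tnfrsf22 encodes a mouse decoy receptor for TRAIL. In liver it had 920.5, 823.5 and 894.5 in LPS+genipin livers, 1109, 1149 and 1212 in LPS livers and 392, 373 and 189.7 in mock livers, with 1 mock array at the floor. Its liver difference for LPS minus mock was 1.78 ± 0.14 (adjusted p = 1.4e-05). LPS+genipin minus LPS there was −0.40 ± 0.14 (adjusted p = 0.0454), a call lost without a floor (adjusted p = 0.194) and without any 1 of the 6 compared arrays (adjusted p up to 0.129). In kidney it had 587, 581 and 528.5 in LPS+genipin kidneys, 775, 1040.0 and 1032 in LPS kidneys and 612, 625 and 618 in mock kidneys, with LPS kidneys highest. The differences there were 0.60 ± 0.11 (adjusted p = 0.00168) for LPS minus mock and −0.74 ± 0.11 (adjusted p = 0.000826) for LPS+genipin minus LPS. In heart the values were 978, 895 and 804 in LPS+genipin hearts, 660.4, 689.5 and 1014 in LPS hearts and 676, 833 and 791 in mock hearts. In brain they were 297.5, 263 and 297.5 in LPS+genipin brains, 289, 229 and 416 in LPS brains and 289, 292 and 312 in mock brains. No difference passed in heart or brain. Without LPS array 3, LPS+genipin minus LPS in heart was 0.40 (adjusted p = 0.0285).

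Tnfrsf19 encodes TROY, a TRAF-binding receptor of the developing nervous system and hair follicles. In heart it had 268, 303 and 312 in LPS+genipin hearts, 278, 303.5 and 222 in LPS hearts and 795, 669 and 675 in mock hearts, so both LPS-treated groups lay below mock and overlapped each other. The heart differences were −1.34 ± 0.10 (adjusted p = 1.36e-05) for LPS minus mock and 0.06 ± 0.10 (adjusted p = 0.633) for LPS+genipin minus LPS. LPS+genipin minus mock was −1.28 ± 0.10 (adjusted p = 8.3e-05), which ranked 14 from the lowest among 9536 genes. In brain it had 6820.6, 6317 and 6398.5 in LPS+genipin brains, 5149, 6003 and 4423.5 in LPS brains and 6978, 7232 and 7937 in mock brains, with every LPS array below every other array. There LPS minus mock was −0.52 ± 0.11 (adjusted p = 0.00821) and LPS+genipin minus LPS was 0.34 ± 0.11 (adjusted p = 0.0475). The genipin call was lost with the replicate number as a block (adjusted p = 0.0771), although the labels state no pairing. It was also lost with the floor at the 10th percentile (adjusted p = 0.0596), in a fit of the compared arrays alone (adjusted p = 0.104) and without LPS+genipin array 1, 2 or 3 or LPS array 1 or 3 (adjusted p up to 0.134).

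The other receptors changed less. Tnfrsf4, which encodes the T cell costimulator OX40, averaged 12480.3 ± 744 in LPS+genipin brains, 14246 ± 740 in LPS brains and 11777 ± 551 in mock brains (SD, n = 3 each). No T cell marker of 6 had a value in brain, and the labels do not say why probes were left out. The part of T cells in the Tnfrsf4 values was not tested. The LPS minus mock difference of Tnfrsf4 was 0.27 ± 0.06 (adjusted p = 0.014) in brain and −0.14 ± 0.05 (adjusted p = 0.0363) in kidney. Its LPS+genipin minus LPS difference was 0.17 ± 0.05 (adjusted p = 0.0225) in kidney and −0.28 ± 0.08 (adjusted p = 0.023) in liver. The brain call was lost without mock array 2 (adjusted p = 0.0541). The kidney LPS call was lost with a trended prior (adjusted p = 0.0541) and without LPS array 2 or 3 or mock array 1 or 2 (adjusted p up to 0.111). The kidney genipin call was lost without LPS+genipin array 2 or 3 or LPS array 2 or 3 (adjusted p up to 0.0737). The liver call was lost in a fit of the compared arrays alone (adjusted p = 0.0609) and without LPS+genipin or LPS array 1 or 2 (adjusted p up to 0.0747). Tnfrsf21, which encodes the death-domain receptor DR6, averaged 3826.5 ± 250 in LPS+genipin kidneys, 4486 ± 156 in LPS kidneys and 3043 ± 152 in mock kidneys (SD, n = 3 each). Its differences were 0.56 ± 0.06 (adjusted p = 9.26e-05) for LPS minus mock and −0.23 ± 0.06 (adjusted p = 0.0126) for LPS+genipin minus LPS. Tnfrsf18, which encodes GITR of regulatory T cells, averaged 1432 ± 314 in LPS+genipin livers, 1280.4 ± 127 in LPS livers and 1962 ± 81.3 in mock livers (SD, n = 3 each), with LPS minus mock at −0.62 ± 0.14 (adjusted p = 0.0059). Tnfrsf13b, which encodes the BAFF and APRIL receptor TACI, had an LPS minus mock difference of −0.34 ± 0.11 (adjusted p = 0.0485) in brain, a call lost without LPS array 1 or 2 or any 1 mock array (adjusted p up to 0.127). Eda2r and Tnfrsf9, measured in heart only, passed in no comparison, although without LPS array 3 Eda2r was higher with genipin than with LPS alone, 0.46 (adjusted p = 0.0438). Tnfrsf9, which encodes the 4-1BB receptor, was at the floor in 1 LPS+genipin, 1 LPS and 2 mock arrays.

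Whether the changes differed among tissues was tested for the 14 members measured in more than 1 tissue. The LPS difference differed for 13 of 14 members, all but Tnfsf9 (adjusted p = 0.223), where 72.5% of 10028 genes did so. The genipin difference differed for 10 of 14 members, where 69.9% of genes did so. The 4 that did not pass were Ltbr (adjusted p = 0.193), Tnfrsf19 (adjusted p = 0.113), Tnfsf13b (adjusted p = 0.124) and Tnfsf9 (adjusted p = 0.574). Tnfrsf12a had the lowest adjusted p of the members in both, 6.67e-17 for LPS and 3.2e-18 for genipin.

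In kidney, arrays of LPS and mock did not overlap for any of the 14 members (12 above, 2 below), where 69.3% of all genes did not overlap. The same held for 8 of 11 members in brain (all genes 47.7%), 9 of 16 in heart (all genes 54.3%) and 11 of 12 in liver (all genes 70.5%). LPS+genipin and LPS arrays did not overlap for 7 of 11 members in brain (all genes 39%), 7 of 16 in heart (all genes 52.7%), 12 of 14 in kidney (all genes 62%) and 9 of 12 in liver (all genes 60.4%). LPS+genipin and mock arrays did not overlap for 4 of 11 members in brain (all genes 41.4%), 8 of 16 in heart (all genes 41.5%), 9 of 14 in kidney (all genes 54.1%) and 10 of 12 in liver (all genes 69.2%).

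Of 49 genes that act downstream of these receptors or release them, 35 had values in brain and in liver, and 37 in heart and in kidney. In LPS against mock, 13 were higher and 7 lower in brain, 16 and 2 in heart, 23 and 8 in kidney, and 25 and 3 in liver, where 33.9%, 47.4%, 64.5% and 66.5% of all genes were called in either direction, with median log2 differences of 0.03, 0.16, 0.43 and 0.67 in these tissues. In LPS+genipin against LPS, 4 were higher and 10 lower in brain, 2 and 20 in heart, 6 and 19 in kidney, and 9 and 11 in liver, where 30.2%, 42.1%, 54.9% and 54% of all genes were called. All 4 NF-kB subunits measured in kidney were higher after LPS and lower with genipin, whereas in liver all 4 were higher after LPS and 1 was higher with genipin. Of 16 adaptors and kinases measured in brain, 2 were higher and 5 lower after LPS (all genes called in either direction 33.9%). Of 17 in heart, 2 were higher and 1 lower (all genes 47.4%). Of 16 in kidney, 8 were higher and 6 lower (all genes 64.5%). Of 15 in liver, 8 were higher and 2 lower (all genes 66.5%).

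Tnfaip3, which encodes the ubiquitin-editing NF-kB inhibitor A20, was higher after LPS by 4.29 ± 0.04 (adjusted p = 1.67e-10) in kidney, 4.19 ± 0.05 (adjusted p = 1.9e-09) in liver and 2.01 ± 0.08 (adjusted p = 1.34e-06) in brain. Birc3, which encodes the TRAF-bound ubiquitin ligase cIAP2, was higher by 2.04 ± 0.08 (adjusted p = 1.23e-06) in brain, 2.47 ± 0.06 (adjusted p = 1.79e-08) in heart, 3.42 ± 0.06 (adjusted p = 3.51e-09) in kidney and 2.51 ± 0.07 (adjusted p = 4.61e-08) in liver. With genipin it was lower than with LPS alone in all 4, at −1.18 ± 0.08 (adjusted p = 4.71e-05), −1.21 ± 0.06 (adjusted p = 2.43e-06), −1.52 ± 0.06 (adjusted p = 1.65e-06) and −1.14 ± 0.07 (adjusted p = 1.08e-05) in the same order. Mlkl, the effector of necroptosis, was higher after LPS by 2.81 ± 0.17 (adjusted p = 5.29e-06) in heart and 2.60 ± 0.13 (adjusted p = 1.07e-06) in liver, with genipin differences of −2.15 ± 0.17 (adjusted p = 3.93e-05) and −0.83 ± 0.13 (adjusted p = 0.00127). The alternative NF-kB subunit genes rose in kidney, Relb by 3.25 ± 0.08 (adjusted p = 1.44e-08) and Nfkb2 by 2.52 ± 0.07 (adjusted p = 3.85e-08), with genipin differences of −1.34 ± 0.08 (adjusted p = 5.76e-06) and −1.15 ± 0.07 (adjusted p = 8.55e-06). Nfkb2 was also higher after LPS in brain, 1.78 ± 0.07 (adjusted p = 1.23e-06), and liver, 2.19 ± 0.06 (adjusted p = 2.34e-08), and Relb in heart, 1.54 ± 0.10 (adjusted p = 5.78e-06).

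Tnip1, which encodes an A20-binding inhibitor, was higher after LPS by 1.70 ± 0.15 (adjusted p = 5.01e-05) in heart, 2.43 ± 0.11 (adjusted p = 6.81e-07) in kidney and 2.89 ± 0.17 (adjusted p = 2.05e-06) in liver. Nfkbia, the gene of the inhibitor IkB-alpha, was higher by 1.47 ± 0.07 (adjusted p = 5.39e-06) in brain, and in heart by at least 3.48-fold, since its LPS arrays were saturated. Map3k14, the kinase of the alternative NF-kB pathway, was higher after LPS in liver by 1.76 ± 0.10 (adjusted p = 1.61e-06), and Ripk1, the TNFR1-bound kinase, in brain by 0.79 ± 0.11 (adjusted p = 0.00126). Genipin was accompanied by lower Tnfaip3 in brain, −1.65 ± 0.08 (adjusted p = 9.64e-06), lower Traf1 in heart, −0.86 ± 0.09 (adjusted p = 0.000181), lower Nfkbie in kidney, −1.24 ± 0.05 (adjusted p = 9.04e-07), and higher Map3k7, the kinase TAK1, in liver, 0.66 ± 0.14 (adjusted p = 0.00562). Rhbdf1, which encodes a partner of the TNF-releasing protease ADAM17, was higher after LPS in brain by 0.73 ± 0.08 (adjusted p = 0.000377).

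**Figure D4:**
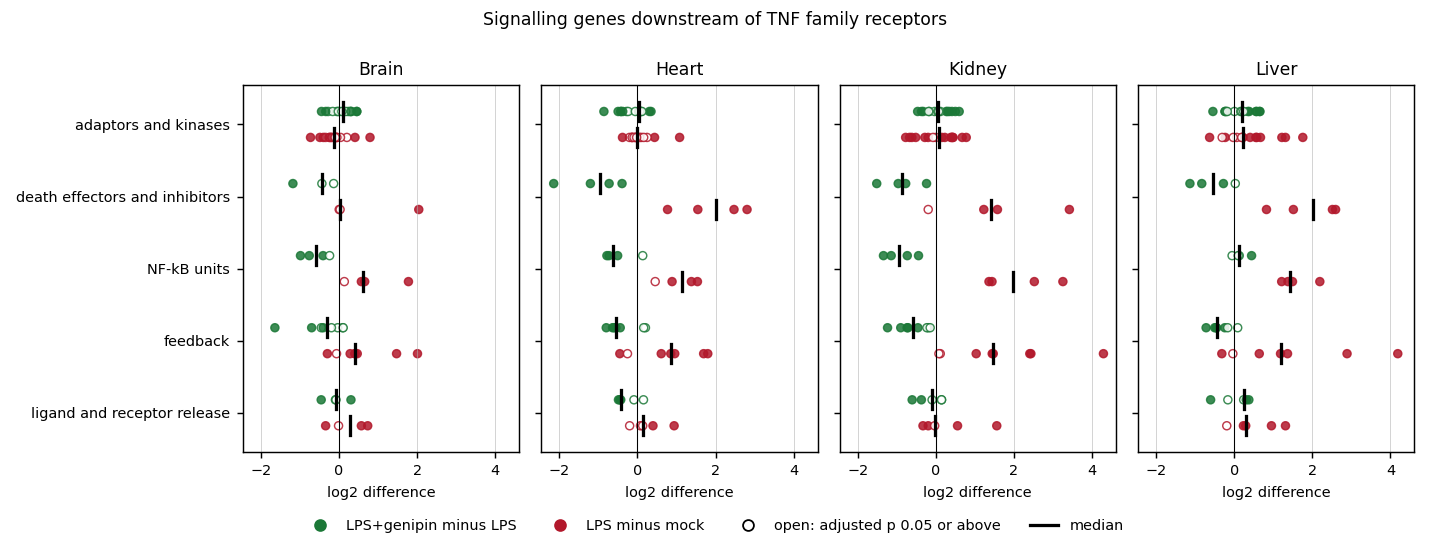
Log2 differences of the downstream genes by class and tissue, with LPS+genipin minus LPS in green above LPS minus mock in red; each point is a gene, open points have an adjusted p of 0.05 or above, and black bars are medians of the class. Medians of death regulators, NF-kB units and feedback genes lie right of 0 after LPS in every tissue, only just so for death regulators in brain. With genipin these medians lie left of 0 in every tissue, except for NF-kB units in liver. Single points show exceptions.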

How the data were processed

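RNA of brain, heart, kidney and liver was labelled with Cy5 (5 µg of total RNA per the labels' protocols) and hybridised to one-colour arrays. The deposited values are intensities on a linear scale from 9.46 to 65491.9, normalized by the authors; their sorted values are nearly equal within a tissue. The submitters' processing notes name limma, without its role; background correction, the probe filter and any build are unstated there. Of 18183 probes, 14817 carried 1 gene symbol and 3366 none; symbols were updated through RefSeq's table (GRCm38.p6). Intensities were raised to a floor at the 5th percentile (262.7) and converted to log2; a fold is "at least" where all arrays of a group lay at the floor or at 60000 and above. Group means were fitted per tissue, over its 9 arrays, with limma 3.58.1 under R 4.3.3, and tests were two-sided, with Benjamini-Hochberg adjustment over all genes of the tissue; the test among tissues was limma's F test. The fit was tested on simulated data. Values by array are given for Tnf, Tnfrsf1a, Tnfrsf1b and members called with a log2 difference of at least 1 after LPS or 0.5 with genipin; downstream genes are named by size, up to 6 per tissue for LPS and 4 for genipin. Tnfsf10 alone had a second probe. Members and lists were chosen with earlier results of these data known. Brain LPS+genipin and LPS arrays of the same number deviated together (correlations 0.144, 0.192 and 0.180 over genes). The labels state no pairing, and the reported tests used group means without a block. Alternatives were other floors, scalings, filters, priors, probes, a fit of the compared arrays alone, the replicate block and leaving out each array. The number of arrays limits the precision. Tables used pandas 2.3.3 and numpy 2.4.6 under Python 3.11.15, with matplotlib 3.10.9 for plots.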

Additional observations from a re-analysis of the deposited data

Results flagged for a closer look

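The following members changed by different amounts in different tissues, by limma's F test over the tissues in which each was measured. For LPS minus mock, the adjusted p-values were Cd40 (3.1e-08), Ltbr (0.00029), Ngfr (0.000902), Tnfrsf11b (3.68e-07), Tnfrsf12a (6.67e-17), Tnfrsf19 (0.000127), Tnfrsf1a (1.59e-06), Tnfrsf1b (3.5e-12), Tnfrsf22 (7.31e-08), Tnfrsf4 (0.00364), Tnfrsf8 (0.00018), Tnfsf12 (0.00604) and Tnfsf13b (0.0485). For LPS+genipin minus LPS, they were Cd40 (2.51e-05), Ngfr (2e-07), Tnfrsf11b (4.02e-05), Tnfrsf12a (3.2e-18), Tnfrsf1a (5.76e-07), Tnfrsf1b (0.0001), Tnfrsf22 (0.00314), Tnfrsf4 (0.00525), Tnfrsf8 (0.000727) and Tnfsf12 (0.00456). Of all genes, 72.5% and 69.9% passed these tests.

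The second probe of Tnfsf10, which entered no comparison above, gave a log2 difference of 1.85 for LPS minus mock in kidney, a lower bound, and −1.53 for LPS+genipin minus LPS, beside 2.20 ± 0.06 and −1.27 ± 0.06 from the probe used. All 3 mock kidneys were at the floor for the second probe.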

How the results depend on the processing

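No called value changed sign under any setting. Among values that passed neither as reported nor under the setting, 9 changed sign over settings other than leaving out an array and 41 without an array, all of them 0.16 or less in size as reported. Over all 21 members, 1491 of 1527 values kept their side of the threshold over those settings, 25 lost the call and 11 gained it; leaving out 1 array, 879 of 954 did, 64 lost it and 11 gained it. With the dimmest genes of a tissue left out, which removes members from the test, members called in brain numbered 4 for LPS minus mock (8 as reported), 3 for LPS+genipin minus LPS (6) and 1 for LPS+genipin minus mock (2); the last was also 1 in a fit of the compared arrays alone. Leaving out each array in turn, the counts ranged, for LPS minus mock, LPS+genipin minus LPS and LPS+genipin minus mock, from 5 to 7, 4 to 5 and 1 to 2 in brain, 7 to 8, 7 to 10 and 4 to 6 in heart, 11 to 13, 10 to 11 and 7 to 8 in kidney, and 9 to 11, 6 to 7 and 9 to 10 in liver; the lowest brain count, 5, came without mock array 2. Over all genes, brain calls numbered 1472 for LPS+genipin minus mock, 926 without the dimmest genes and 2250 in a fit of the compared arrays alone, and 3063 for LPS+genipin minus LPS against 1894 in that fit. With the replicate block, members called numbered 7, 5 and 2 in brain, 8, 7 and 5 in heart, 11, 10 and 7 in kidney and 10, 6 and 10 in liver, in the same order of comparisons. The labels state no pairing for arrays of the same number, in brain or elsewhere. Outside brain LPS+genipin minus LPS, the block gained Ltbr in brain LPS+genipin minus mock (adjusted p = 0.0299). It lost Ltbr in heart LPS+genipin minus mock (0.0581), Tnf in heart LPS+genipin minus LPS (0.0857) and Tnfrsf22 in liver LPS+genipin minus LPS (0.0735). It also lost Tnfrsf13b in brain LPS minus mock (0.0572) and LPS+genipin minus mock (0.059), and Tnfrsf4 in kidney LPS minus mock (0.0714) and LPS+genipin minus LPS (0.0508) and in liver LPS+genipin minus LPS (0.0585). Intensities near the floor limit Tnf, Tnfsf9, Tnfrsf9, Tnfrsf22 in brain, Tnfrsf19 in heart and Tnfsf13b in liver. The cause of the changed calls was not tested.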
